A study of Mus musculus with 6 samples.

Results

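N4-acetylcytidine (ac4C) is an acetylated cytidine that the enzyme Nat10 writes on RNA. On messenger RNA it has been linked to transcript stability and translation. The 5′ end of an mRNA is the part a ribosome scans before it meets the start codon and begins to read codons. Marks in either place therefore lie on RNA that the ribosome passes early. The summits described here are those that the authors placed in a 5′ untranslated region, at any position, or in coding sequence within 300 nt of the start of the listed transcript. They numbered 340 of 1876 listed summits, or 18.1% (exact Clopper-Pearson 95% interval 16.4% to 19.9%), on 337 transcripts of 306 genes. Of them, 133 were 5′ untranslated and 207 were early coding, and both together are called 5′ summits from here on. The other 1536 summits comprised 693 later coding and 843 3′ untranslated ones.

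The cells were wild-type mouse 32D cells, an IL-3-dependent bone marrow line that the labels call lymphoblastocytes. They were kept in 10 ng/mL mouse IL-3 and 10% fetal bovine serum. Poly(A) RNA was pulled down with an ac4C antibody (2 libraries) or with IgG (2 libraries), or was kept as input without antibody (2 libraries). By their names, the summits stem from a single call on both ac4C libraries together, so each value is pooled, with no replicate error, and depth per library is unknown. Intervals below cover counting error only, and no test was made between summits of 1 list. Of the cell type markers checked, 5 of 15 myeloid genes had a listed summit. None of 6 mast cell, 6 B cell and 6 T and NK cell markers had one. Prtn3, which encodes a protease of neutrophil granules, was the only marker with an early coding summit, with a fold of 4.27 at nt 228. Of 38 markers of other lineages and tissues, which include these B, T and NK cell ones, 4 had a summit elsewhere in their transcript. These were Shank1 (160.9), Pf4 (125.3), Hba-a1 (41.8) and Mbp (6.65), where the tallest myeloid marker, Spi1, had 53.6. Of the 38, 0 had a 5′ summit, which, at 3 counts of 38 for a count of 0, allows a share of up to 7.89%. Of all listed genes, 20.6% had one. The 2 shares are not comparable, since only the 4 markers with any listed summit bear on where summits lie.

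The height of a summit is given as fold enrichment, a ratio from the authors' peak caller. All folds in the list were whole multiples of 0.475 to within 0.01 of a multiple, which corresponds to the number of stacked fragments plus 1 over a constant background of 1.11 fragments plus 1. The fold thus has no input term and does not separate strong pull-down from an abundant transcript. Summits in the 5′ untranslated region and early coding sequence held 6 to 275 fragments, with a median of 26. In the authors' deposited table, none of their q-values exceeded 0.00193.

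To show the sequence at the 5′ ends, genes were matched by symbol to RefSeq start sites on build GRCm38.p6. Of 303 genes with a RefSeq name, 248, or 81.8%, had a protein-coding start in that table. The stretches below are 30 bases of genomic sequence counted from the RefSeq start, which can differ from the start of the listed transcript and can run into an intron. They are all genes with a summit within 65 nt of the start that have 1 start in the table, and Tbca and Rpl12, which hold the tallest summit of their region. Capitals mark the first ATG after the start in the first 5. In Rpl12 they mark CTTTT, a pyrimidine run of the kind that opens ribosomal protein mRNAs. Rpl12 and the others, which have no capitals, hold no ATG in the first 50 bases.
Os9 (bases 21 to 50, chr10:127121111-127121140, minus strand): tctagcagagacggagcggaagATGgcggc
Nol7 (bases 21 to 50, chr13:43398396-43398425, plus strand): ccgtttgccATGgtgcagctccggccccgc
Ndufa3 (bases 21 to 50, chr7:3617393-3617422, plus strand): acaagATGgccgggagtaagtacaggtttg
Ier3 (bases 1 to 30, chr17:35821713-35821742, plus strand): taaattATGtgccactcgcgcaaccatctc
Tbca (bases 21 to 50, chr13:94788940-94788969, plus strand): cttagggaccATGgccgatcctcgcgtgag
Rpl12 (bases 1 to 30, chr2:32961712-32961741, plus strand): gtCTTTTcggctttcggctcggaggaggca
Hnrnpa1 (bases 21 to 50, chr15:103240417-103240446, plus strand): agaaggtaggctggcgggcacgttcgttat
Slc3a2 (bases 21 to 50, chr19:8713848-8713877, minus strand): gcggcagaagcagttaggaagctctgctag
Nup62 (bases 21 to 50, chr7:44816108-44816137, plus strand): aaaggggcagagggtctgtgaattagcgcg
Timm8b (bases 21 to 50, chr9:50603921-50603950, plus strand): gcgtgcgcaccccagcgaagcgcctgactc
Pdxp (bases 21 to 50, chr15:78913939-78913968, plus strand): agcgcgcgcgtgcgagcggccagccggctg
Ndufa6 (bases 21 to 50, chr15:82354242-82354271, minus strand): accgcgcgtgcgcacgctgaaggggcgggg

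For the genes with a coding summit, the label and the sequence can be set side by side. Nol7, a nucleolar protein gene, had a coding summit at nt 39, past its first ATG at base 30. Ndufa3, a complex I subunit gene, had one at nt 45, past an ATG at base 26, and Ier3, an immediate early response gene, one at nt 62, past an ATG at base 7. Tbca had its summit at nt 107, past an ATG at base 31. Timm8b, Pdxp and Ndufa6 had coding summits at nt 59, 60 and 62 and no ATG in the first 50 bases. Os9, whose protein takes part in disposal of misfolded proteins from the endoplasmic reticulum, had the summit closest to the start of all, a coding summit at nt 14. The first ATG from the RefSeq start of Os9 lies at base 43, past that position, so the listed label and this start do not match. The list does not say where positions are counted from, and they are read here as counted from the start of the listed transcript.

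The tallest 5′ untranslated summits lay on genes of quite different roles. Rpl12, a large-subunit ribosomal protein gene, had a fold of 131.0 at nt 219 of ENSMUST00000126610. Fth1, the gene of the iron-storing ferritin heavy chain, had 111 at nt 50. Hnrnpa1, which encodes an RNA-binding splicing regulator, had 90.7 at nt 53, and Slc3a2, which encodes the shared heavy chain of amino acid transporters, 84.0 at nt 62. Of these 4, the summits of Fth1, Hnrnpa1 and Slc3a2 lay within 65 nt of the transcript start and that of Rpl12 did not. Rpl12, Fth1 and Hnrnpa1 have near-identical processed copies elsewhere in the genome, so their reads may be shared with those copies.

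Below these came genes of transcription, calcium binding and cell death. The transcription coactivator gene Sub1 had a fold of 66.5 at nt 102. S100a6, a calcium-binding protein gene, had 66.0 at nt 339, the farthest from the start among the 15 tallest 5′ untranslated summits. Cycs, the gene of cytochrome c, which carries electrons in the respiratory chain and triggers caspases when released, had 63.1 at nt 101. Cbx3, a heterochromatin protein gene, had 57.9 at nt 184. Dpy30, a subunit of histone methyltransferase complexes, had 52.2 at nt 127. The last 5 of the 15 were Vamp5, a vesicle SNARE gene, at 48.9, the cathepsin inhibitor gene Cstb at 48.4, Edf1 at 46.5, the oligosaccharyltransferase subunit gene Ost4 at 43.7 and the glutathione transferase gene Gsto1 at 36.1. These 5 summits lay between nt 72 and nt 119.

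Among early coding summits, the tallest were on genes of protein folding, nuclear movement, splicing and respiration. Tbca, which encodes a tubulin folding cofactor, had a fold of 95.9 at nt 107. Nudc, a dynein-associated protein gene, had 93.5 at nt 192, and Nfkbia, the gene of an NF-kappa-B inhibitor, 77.4 at nt 239. Snrpd2, a core protein of spliceosomal snRNPs, had 73.1 at nt 253, and Rbm8a, a core protein of the exon junction complex, 62.7 at nt 100. Ndufv3 of complex I had 72.6 at nt 191, Uqcr10 of complex III 62.7 at nt 152 and Ndufa7 of complex I 58.9 at nt 123. These 3 respiratory genes stand among the 9 tallest early coding summits.

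The rest of that upper group reached down to a fold of 51.7. Hint1, a nucleotide hydrolase gene, had 60.3 at nt 125. Igfbp4, a secreted binding protein of insulin-like growth factors, and Nol7 both had 56.0, at nt 298 and nt 39. Pfdn1, a subunit of the prefoldin chaperone, had 54.6 at nt 216. Uqcrb of complex III and Ier3 both had 53.2, at nt 106 and nt 62. Arpc4 of the actin-nucleating Arp2/3 complex, the histone gene H2aj and Ssr2 of the translocon all had 51.7. Early coding folds therefore reached less far than 5′ untranslated ones, 95.9 against 131.0, each resting on 1 pooled summit.

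**Figure D1:**
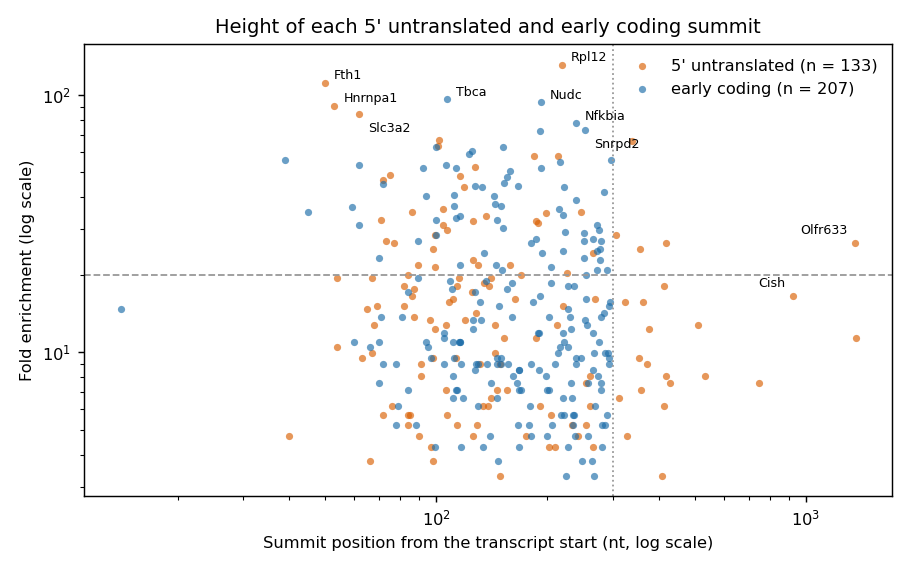
Each point is 1 summit, with its position from the transcript start in nt on the horizontal axis and its fold enrichment on the vertical axis, both on log scales; orange marks the 133 5′ untranslated and blue the 207 early coding summits. The dotted line is the 300 nt limit for coding summits and the dashed line a fold of 20; Rpl12 at 131.0 is the tallest and folds of at least 20 occur from nt 39 (Nol7) to nt 1362 (Olfr633).

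At the other end of the range, 4 summits shared the lowest fold of 3.32, from 6 stacked fragments. They were on Nqo2, a quinone reductase gene, and Kcnj15, a potassium channel gene, in the 5′ untranslated region, and on Nudt3 and Tex261 in early coding sequence. Next came Wasf2, an actin regulator gene, at 3.80, with the same fold on Nedd4, Gtf3c6, Mrps21 and 1 summit of Nup62. All of these are in the authors' list, and none stood above 7 fragments.

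The 5′ untranslated summits lay mostly near the transcript start. The median position was nt 130 for 5′ untranslated summits (quartiles 91 and 226) and nt 167 for early coding summits (quartiles 116 and 235.5), the latter bounded at 300 by the choice. Of the 5′ untranslated summits, 42 lay within the first 100 nt, 38 from nt 101 to 150, 12 from nt 151 to 200 and 11 from nt 201 to 250. The early coding counts over the same steps were 32, 56, 37 and 39, with 43 more from nt 251 to 300. The 5′ untranslated summits thinned out with distance, and the early coding ones did not. The region labels bound both, since a 5′ untranslated summit cannot lie past the end of that region. Lengths of these regions were not measured.

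Fold and position were weakly related. Median folds of 5′ untranslated summits were 14.95 within 100 nt, 15.9 from nt 101 to 150 and 18.0 from nt 151 to 200, then 12.8 from nt 201 to 250 and 7.59, over 7 summits, from nt 251 to 300. Those of early coding summits were 14.2, 11.6, 11.9 and 10.4 over the same steps and 13.3 from nt 251 to 300. Across the 340 summits, which share 1 library pool and partly their transcripts, Spearman's rho of fold on position was -0.14 and Pearson's r of log2 fold -0.09. Among early coding summits, a fold of at least 20 was reached by 13 of 32 in the first 100 nt, 18 of 56 from nt 101 to 150, 13 of 37 from nt 151 to 200, 9 of 39 from nt 201 to 250 and 15 of 43 from nt 251 to 300, where 24.6% of all listed summits reached it.

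Around the limit of 300 nt the folds were as varied on one side as on the other. Just inside were Igfbp4 at nt 298 with 56.0, the anaphase-promoting complex gene Anapc11 at nt 296 with 15.7, Gon7 at nt 294 with 9.49, and the mitophagy receptor gene Bnip3 at nt 294 and nt 293 with 9.02 and 15.2. Just outside were the G protein gene Gnas at nt 302 with 23.7, the histone deacetylase gene Hdac3 at nt 304 with 35.6, and Glrx5, Cct8 and Serf1, all at nt 305, with 32.3, 14.2 and 8.54.

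A few 5′ untranslated summits lay far from the start. The odorant receptor gene Olfr633 had one at nt 1362 with a fold of 26.6. Cish, a feedback inhibitor of cytokine signalling, had one at nt 924 with 16.6, and Mboat7, a lipid acyltransferase gene, at nt 749 with 7.59. Olfr633 is best known from the nose rather than blood cells, and whether these cells express it was not measured.

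Compared with the rest of the list, 5′ summits had a similar median fold and were more often tall, a word used here for a fold of at least 20. The median fold was 12.8 (95% order-statistic interval 10.9 to 14.7; quartiles 7.59 and 25.5) against 11.4 (10.4 to 11.9; quartiles 6.65 and 19.0) for the other 1536 summits, a ratio of 1.13. With the median of the others held fixed, the interval of that ratio, 0.958 to 1.29, includes 1. That fold was reached by 108 of 340 summits, or 31.8% (26.8% to 37.0%), where 24.6% of all listed summits reached it and 22.98% (20.9% to 25.2%) of the others. The 2 intervals did not overlap, which is a description of 1 list and no test. By region, the share was 30.1% for 5′ untranslated (22.4% to 38.6%), 32.9% for early coding (26.5% to 39.7%), 20.2% for later coding (17.3% to 23.4%) and 25.3% for 3′ untranslated summits (22.4% to 28.3%). Median folds in the same order were 13.8, 11.9, 9.97 and 12.3. The medians of early coding and 3′ untranslated summits thus lay within each other's intervals.

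**Figure D2:**
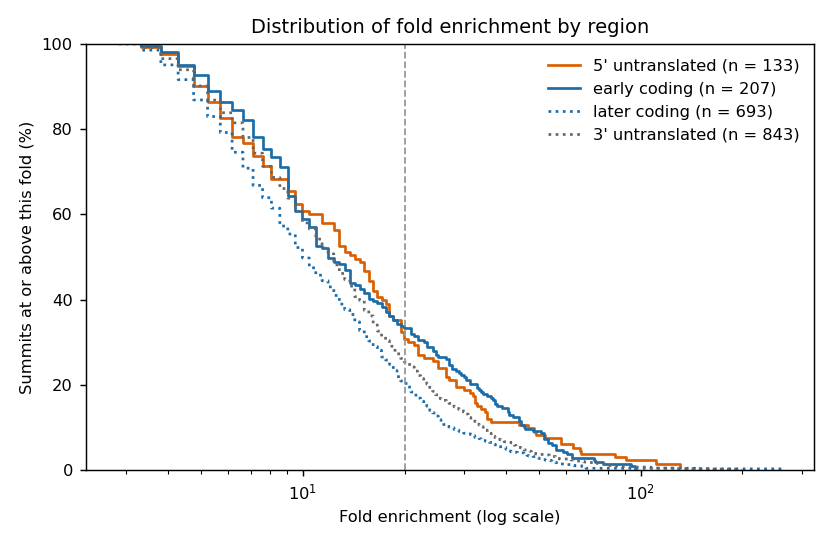
Lines give, for each fold enrichment on the log-scaled horizontal axis, the percent of summits of a region at or above it; the dashed line marks a fold of 20. There the early coding line stands at 32.9% and the 5′ untranslated line at 30.1%, above 25.3% for 3′ untranslated and 20.2% for later coding summits.

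Most tall 5′ summits lay in peaks that held several summits. The peak caller adds a letter to a summit when its peak holds more than 1, and in all 50 peaks with at least 2 listed summits on 1 transcript the letters ran in order of position, so that a is read here as the summit closest to the 5′ end. Letters were about as common among 5′ untranslated and early coding summits, 95 of 340 or 27.9% (23.2% to 33.0%), as among the others, 26.2% (23.99% to 28.4%). Of the 95, 89 carried the letter a and 6 the letter b, an order that choosing summits near the 5′ end favours by construction. Lettered 5′ untranslated and early coding summits had a median fold of 29.9, against 21.6 for lettered summits elsewhere. Without a letter the medians were 9.49 and 9.26. Among the 108 tall summits, 67 were lettered, or 62.0%, against 12.1% of the other 232. In peaks with 1 summit, 41 of 245 5′ summits were tall, or 16.7% (12.3% to 22.0%), against 137 of 1134 others, or 12.1% (10.2% to 14.1%). Among lettered summits, 67 of 95 were tall, or 70.5% (60.3% to 79.4%), against 216 of 402 others, or 53.7% (48.7% to 58.7%). The share of tall summits was thus higher near the 5′ end in both kinds of peak, with intervals that overlapped in peaks with 1 summit. Of the 108, 62 carried the letter a, which the same choice favours.

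Summits of 1 transcript share its abundance. Coverage along the transcript and reads from other isoforms were not measured, and both can still differ between its summits. On 39 transcripts the list held a 5′ untranslated or early coding summit and another one. The tallest of the former was higher on 21, equal on 1 and lower on 17, with a median ratio of 1.1 (quartiles 0.829 and 1.38). On 26 of the 39 the folds were within 1.5 times of each other, on 7 the 5′ summit was over 1.5 times the other, and on 6 the other was over 1.5 times the 5′ summit. Transcripts were grouped by the region of their tallest other summit, so the groups themselves depend on the folds compared. The counts by that region were uneven. Against a later coding summit, the 5′ untranslated one was higher on 7 of 7 transcripts (median ratio 1.45, range 1.05 to 2.11). Against a 3′ untranslated summit, it was higher on 1 of 9 (median ratio 0.656, range 0.289 to 1.36). Early coding summits were higher on 6 of 10 transcripts against later coding and on 7 of 13 against 3′ untranslated summits. These counts rest on listed summits alone, and no test was made.

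Igfbp4 had the widest gap in favour of the 5′ end, a ratio of 2.23. Its coding summit at nt 298 of the transcript had 56.0, against 25.2 in its 3′ untranslated region. Ssr2 followed with 51.7 against 23.7 in its 3′ untranslated region, and Cetn3, a centriole protein gene, with 35.1 in the 5′ untranslated region against 16.6 in later coding sequence. The mitochondrial chaperonin gene Hspd1 had 18.0 against 9.97, though another coding summit of the gene, at nt 405 and not on this transcript, had 19.0. Tlnrd1 had 15.7 against 9.02. These 5 ratios ran from 1.74 to 2.23.

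The opposite order was most marked on Aars, the alanyl-tRNA synthetase gene, with 12.3 at nt 376 against 42.7 in its 3′ untranslated region, a ratio of 0.289. Wasf2 had 3.80 against 10.9, Rtn3, an endoplasmic reticulum shaping protein gene, 9.02 against 14.7, and the endosomal GTPase gene Rab7 11.4 against 18.0. In these 4 genes the 5′ summit was untranslated and the taller one lay in the 3′ untranslated region. Snx2, a sorting nexin gene, had 12.3 at nt 126 against 19.0 at nt 323, both in coding sequence.

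**Figure D3:**
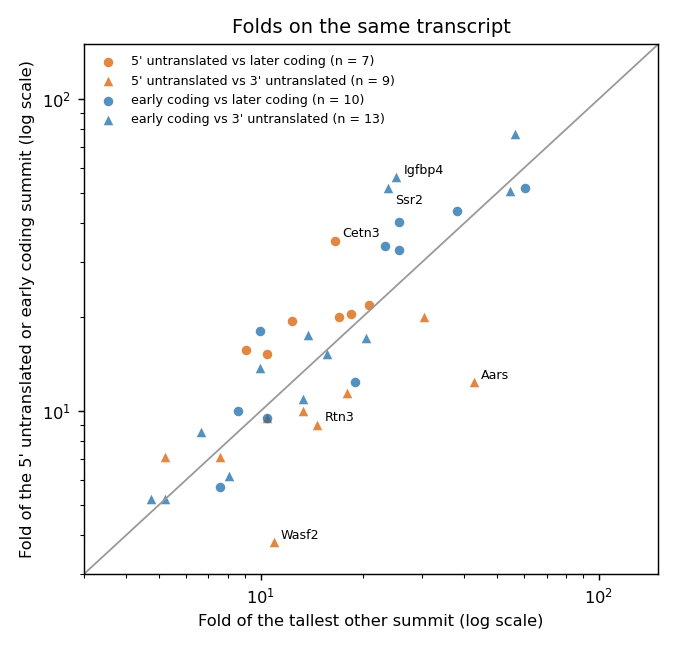
Each point is 1 of 39 transcripts, with the fold of its tallest other summit on the horizontal axis and that of its tallest 5′ untranslated (orange) or early coding (blue) summit on the vertical axis, both on log scales; circles stand for a later coding and triangles for a 3′ untranslated other summit, and the line marks equal folds. All 7 orange circles lie above the line and 8 of 9 orange triangles below it.

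Over whole genes, 230 of the 306 had 5′ untranslated or early coding summits alone and 76 also had others. In those 76, the tallest 5′ summit was higher in 36, equal in 1 and lower in 39, on transcripts that could differ. Genes were again grouped by the region of their tallest other summit. Against later coding summits, the 5′ untranslated one was higher in 11 of 11 genes, which overlap those of the 7 transcripts above. Against 3′ untranslated summits it was higher in 6 of 17. Early coding summits were higher in 9 of 25 genes against later coding (median ratio 0.858) and in 10 of 23 against 3′ untranslated summits. Cd47, whose protein signals to phagocytes, had an early coding summit of 17.6 at nt 155 beside 5 others from 13.8 to 22.8.

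Most of the 306 genes, 275, had 1 such summit, 28 had 2 and 3 had 3. The 3 genes were Nup62, a nuclear pore gene, with folds from 3.80 to 7.12, the protease gene Nrd1 with 4.27 to 5.22, and Bbln with 9.49 to 27.1. In 29 of these 31 genes the summits lay on different transcripts, and whether they are 1 site assigned to several isoforms was not tested. In 16 genes their positions were within 50 nt of each other and in 18 their folds within 1.5 times. Ube2c, a ubiquitin-conjugating enzyme gene of mitosis, had 50.8 at nt 158 and 47.9 at nt 155 of different transcripts. The pair on 1 transcript were Timm8b, with 36.5 at nt 59 and 22.8 at nt 278, and Ldha, the lactate dehydrogenase gene, with 10.4 and 10.9.

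Some genes carried both region labels, and whether the labels mark 1 site on different isoforms was not tested. In 10 genes both labels, 5′ untranslated and early coding, occurred. Dpy30 had 52.2 as 5′ untranslated at nt 127 of 1 transcript and 9.97 as coding at nt 287 of another, and Arpc4 had 51.7 as coding at nt 113 and 15.2 as 5′ untranslated at nt 220. Ost4 had 43.7 as 5′ untranslated and 34.2 as coding on different transcripts. Of the 10 genes, Bbln alone had both on 1 transcript, 19.5 at nt 141 and 27.1 at nt 279.

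To describe function, listed genes were grouped into 19 families by symbol. Of the 306 genes, 96 fell in at least 1 family. The share of listed genes that had a 5′ untranslated or early coding summit was 20.6% over all 1485 genes. It was highest for the respiratory chain and ATP synthase, 15 of 30 genes (31.3% to 68.7%), among families with at least 10 listed genes, followed by the mitochondrial ribosome and import, 8 of 17 or 47.1% (22.98% to 72.2%). The lower ends of these 2 intervals, and of no other family, lay above 20.6%. The second family counts Mrps36 by its symbol alone, and its interval was not computed without that gene. Transcript lengths were not analysed here.

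The respiratory genes were nearly all early coding, 14 of 15, and 13 of the 15 had a fold of at least 20 at their tallest 5′ summit. Over all summits, counted singly and not as the tallest of a gene, 24.6% did. Among 5′ summits that were the strongest listed summit of their gene, 36.3% did. Respiratory summits were often tall in other regions too, 10 of 16 in later coding sequence and 3 of 4 in the 3′ untranslated region, against 14 of 16 in early coding sequence. Over the 15 genes with a 5′ summit, the median fold of the tallest one was 41.8. It was 20.4 for the tallest summits of the 15 respiratory genes without a 5′ summit. Besides Ndufv3, Uqcr10, Ndufa7 and Uqcrb, the ATP synthase genes Atp5o and Atp5k had 44.1 and 43.7, and Cox14, a complex IV assembly gene, 41.8. The complex I genes Ndufa12, Ndufb7, Ndufa3 and Ndufa6 had 40.3, 37.0, 35.1 and 31.3, and Ndufa4 had 26.6. Cox17, a copper chaperone gene, was below 20, at 13.8. Cycs was the 1 respiratory gene with a 5′ untranslated summit.

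Genes of the mitochondrial ribosome and import were lower. Timm8b, a chaperone of the space between the mitochondrial membranes, had 36.5, and the ribosomal gene Mrpl51 had 32.3 in its 5′ untranslated region. Tomm22, a receptor of the outer-membrane translocase, had 14.2 and Mrpl24 had 12.8. The other 4, all early coding, were Mrpl49 at 10.9, Mrpl23 and Mrps36 at 9.02 and Mrps21 at 3.80. Mrps36 was placed here by its symbol alone, and whether its protein belongs to the ribosome was not checked. The median of the 8 was 11.9.

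In the translation machinery, 4 of 11 aminoacyl-tRNA synthetase genes had a 5′ summit, or 36.4% (10.9% to 69.2%). Aimp1, a scaffold of the synthetase complex, had 29.0, Kars 27.1, Sars 14.7 and Aars 12.3. Translation factors had 6 of 22, or 27.3% (10.7% to 50.2%), none of them with a fold of 20. The highest were Eif4b, a cofactor of the cap-binding helicase, at 19.0, the elongation factor subunit gene Eef1d at 18.0, Eif2s3x at 10.9 and Eif1b at 9.02. Ribosome biogenesis and RNA helicase genes had 5 of 24, or 20.8%, all early coding, with Nop9 at 17.1, Nop16 at 13.3 and Pes1 at 7.12 after Nol7. Of the 2 listed ribosomal protein genes, Rpl12 had one, and Rpl29 had a coding summit of 8.54 at nt 394, outside the limit.

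Nuclear families had shares near that of all genes or somewhat above it. Splicing and hnRNP genes had 8 of 38, or 21.1%, with Lsm4 at 31.3 and Hnrnpa3 at 20.9 after Hnrnpa1, Snrpd2 and Rbm8a. Chromatin and histone genes had 7 of 24, or 29.2% (12.6% to 51.1%), and 5 of the 7 had a fold of at least 20. These were Cbx3, H2aj, the variant histone gene H3f3a at 29.9, the nucleosome-binding protein gene Hmgn2 at 24.2 and the deacetylase gene Hdac1 at 21.8. That fold was also reached by 5 of the 8 splicing and hnRNP genes and 4 of the 7 cell cycle and replication genes. Over all listed summits 24.6% reached it, and 36.3% of 5′ summits that were the strongest listed summit of their gene. Cell cycle and replication genes had 7 of 36, or 19.4%. Cdc20, an activator of the anaphase-promoting complex, had 34.7 and Cdk1, the mitotic kinase gene, 32.8, both 5′ untranslated, and the centromere gene Cenpw had 32.8 and Cdc123 24.7 in early coding sequence.

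In protein turnover, folding and transport, the shares ran from 16.7% to 21.4%. Proteasome and ubiquitin genes had 6 of 36, with Ube2c at 50.8, the proteasome gene Psma1 at 29.9, Psme1 at 9.49 and Fbxl15 at 8.07. Chaperones had 3 of 14, Hsp90ab1 at 27.5, Cct8 at 18.5 and Hspd1 at 18.0. Vesicle transport had 10 of 49, with Vamp5 at 48.9, the coat protein gene Sec13 at 21.4, Snx20 at 15.2 and Rab5c at 13.3. The lysosome and V-ATPase family had 2 of 11, Atp6v1f at 29.4 and Atp6v1a at 15.7.

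**Figure D4:**
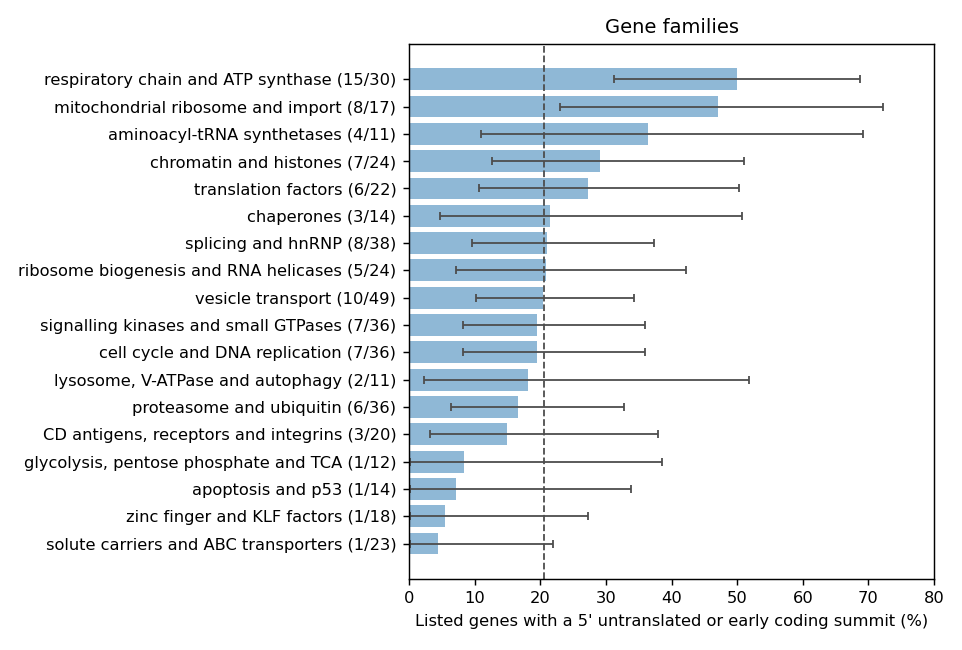
Bars give the percent of the listed genes of each family that had a 5′ untranslated or early coding summit, with the counts in brackets and the exact 95% binomial interval as a line; families with fewer than 10 listed genes are not drawn. The dashed line is the 20.6% of all listed genes; the respiratory chain (15 of 30) and the mitochondrial ribosome and import (47.1%, with Mrps36 counted by its symbol alone) have intervals that lie wholly to its right.

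Signalling genes had 7 of 36, or 19.4%. Pim1, a survival kinase that cytokine receptors induce, had 25.2 at nt 357 and Cish 16.6, both 5′ untranslated, and the phosphatase regulator genes Ppp1r2 and Ppp1r18 had 16.1 and 12.8. CD antigens, receptors and integrins had 3 of 20, namely Cd47, Tnfrsf9 at 6.17 and the interferon receptor gene Ifnar2 at 4.27. Of 14 apoptosis and p53 genes, Bad alone had one, at 7.12, and of 12 glycolysis, pentose phosphate and TCA genes Ldha alone. The only one of 23 solute carrier and ABC transporter genes was Slc3a2, and that of 18 zinc finger and KLF genes was Zfp706, at 31.8. The intervals of these last 4 families, which reached 21.9% to 38.5%, all include the share of all genes.

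The blood cell regulators checked by name had summits outside the 5′ end. Myb, Gata1 and Spi1, whose proteins are hematopoietic transcription factors, had 3′ untranslated summits, with folds of 51.7, 31.8 and 53.6. Myc had a coding summit of 11.4 at nt 731 and a 3′ untranslated one of 15.7, while the IL-3 receptor gene Csf2rb had a coding summit of 9.02 at nt 965. Chd4 and Pkm had no 5′ summit, and their coding summits nearest the transcript start lay at nt 517 and nt 456. Other such regulators were not searched for as a group, and Lyl1, a hematopoietic transcription factor gene seen among the 5′ summits afterwards, had a 5′ untranslated summit of 11.4 at nt 186. Nat10 and its adaptor gene Thumpd1 had no listed summit at all, which does not show that they lack ac4C.

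Base composition at the transcript start was then compared, since ac4C is a modified C. Over the first 50 bases from the RefSeq start, the median share of C was 28% (quartiles 24% and 34%) in the 248 genes with a 5′ untranslated or early coding summit. It was also 28% in the 945 genes with other summits alone and in all 17492 protein-coding genes of the table. The median share of A was 16% in both groups of listed genes and 19.3% in the table, and that of G 36% in both and 32% in the table. Listed genes thus held less A and more G than the table, and the median share of C was the same in all 3 sets. For the 154 genes with an early coding summit the median share of C was 28.8%.

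Short motifs were searched next. A run of 4 C spaced 3 bases apart was searched on the sense strand of the first 50 bases and occurred in 33.5% of genes with a 5′ summit (27.6% to 39.7%), 33.2% of genes with other summits and 28.2% of all genes. GCCGCC occurred in 7.66%, 8.78% and 5.42% in the same order, and GCCACC, part of the context of strong start codons, in 2.82%, 2.33% and 2.50%. A pyrimidine start, meaning the letters CTTTC, or the letters CTTCC, or the letters CTCTT, or the letters CTTTT, or the letters CCTTT, beginning at bases 1 to 5, occurred in 6.05%, 5.19% and 5.05%. On both strands of the whole window, 250 bases before to 50 after the start, the C run was in 99.2%, 98.4% and 90.6% of genes, GCCGCC in 48.4%, 51.6% and 32.8% and GCCACC in 29.4%, 27.0% and 25.7%. These motifs can overlap each other, and a match is a description of the letters only.

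An ATG within the first 50 bases, a motif added after the data were seen, was found in 37.0% (29.4% to 45.2%) of the 154 genes with an early coding summit and in 27.5% (19.1% to 37.2%) of the 102 with a 5′ untranslated one. Among genes with other summits alone it was 34.5%, and over all genes 45.04%. Tbca, with its ATG at base 31, was among the genes with one. The windows of Hnrnpa1, Slc3a2 and Rpl12, among the tallest 5′ untranslated summits, held none.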

How the data were processed

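Per the submitters' processing notes, reads were handled with cutadapt, Bowtie2 and MACS2 on build GRCm39; versions, parameters and the control used for peak calling were not given in any source at hand. The deposited list gives, per the file headers, each summit's fold enrichment (a ratio), the −log10 of its p-value and q-value, its position on an Ensembl transcript and its region. It holds no count per library, so replicates, IgG and input could not be compared. The fragment count at each summit was recovered from the fold, and the deposited p-values could be recomputed from it to within 0.000474%. The step that recovers it was tested on simulated data.

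Here, summits were selected by region and position (Python 3.11.15, pandas 2.3.3, scipy 1.17.1). Medians have order-statistic intervals and shares exact Clopper-Pearson intervals at 95%. Members and gene families were chosen with earlier results of these data known. Named genes are the 15 tallest per region (ties kept), the 5 lowest (ties kept), nearest, farthest and limit-flanking summits, the 5 widest ratios each way within a transcript, the genes with most summits, up to 4 per family and a short fixed list. Other genes, the ATG motif and 2 alternatives were chosen after values were seen. Alternatives changed the unit, limit, region, threshold and peak type. A few genes that the rule names are not reported here. Of 1485 symbols 1475 matched RefSeq.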

Additional observations from a re-analysis of the deposited data

How the results depend on the processing

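No paired analysis was possible because the list is 1 pooled call; leaving out a replicate could not be run for the same reason. The share of summits that were 5′ untranslated or early coding changed by construction with their definition, to 13.8% with a coding limit of 200 nt, 26.0% with 500 nt, 7.09% for 5′ untranslated and 11.0% for early coding summits alone, and 23% for early coding among coding summits, the last chosen after seeing the data. Only peaks with 1 summit gave a median fold of 9.49 and a share of tall summits of 16.7%. The stricter list, a selection on the fold itself, gave 23.3 and 57.8%. The ratio of medians stayed above 1 under all 9 alternatives, between 1.03 and 1.23, but several of its intervals include 1, such as 0.974 to 1.18 for peaks with 1 summit and 0.917 to 1.29 for early coding summits. The share of C was 28% under both of its alternatives. Depth per library is unknown, and the lowest summits rest on 6 fragments. The threshold of the list and the filter behind it were not stated.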

Other observations

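Subunits of other complexes also had 5′ summits, in groups chosen after their values were seen. Prefoldin hands unfolded actin and tubulin to a chaperonin, and 4 of its 5 listed genes had a 5′ untranslated or early coding summit, where 20.6% of all 1485 listed genes did. Pfdn1 had a fold of 54.6 at nt 216, Pfdn5 25.2 at nt 278, Pfdn2 24.2 at nt 193 and Pfdn6 13.3 at nt 96, the last in its 5′ untranslated region. Vbp1, the fifth, had its tallest summit, 21.8, elsewhere.

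All 3 listed dynein light chain genes, whose products help the motor dynein bind cargo, had one, beside the same 20.6%. Dynlt1b, which has near-identical copies, had 44.1 at nt 127, Dynlrb1 40.3 at nt 94 and Dynll2 32.3 at nt 186. These 3 folds lie above the 20 that 24.6% of all summits reach. No test was made of these groups.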
